A study of Mus musculus with 24 samples.

Results

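The genes described are 33 genes of the complement system, taken by symbol from a list that covers the classical pathway (7 genes), the lectin pathway (6), C3 and the alternative pathway (4), the terminal pathway (7), regulators (7) and the receptors of the C3 and C5 fragments (2). Of the 33 genes, 31 had a mean of at least 0.5 CPM (a gene's count over the TMM-scaled library size, brought to a common total) over the libraries and were kept, and the same 31 were among the 13204 genes tested, of 50657 gene symbols in the files. RNA was sequenced from livers of individual mice, in knockout (KO) mice that lack the epidermal growth factor receptor gene Egfr in hepatocytes and in wild-type (WT) mice, after an overdose of acetaminophen of 500 mg/kg. There were 8 groups of 3 mice: KO and WT at 0, 1, 3 and 12 h, so 24 libraries in all. The 6 h and 24 h times that the series text names were not analysed here. Neither the Cre driver nor the strain, sex or age of the mice is in the labels, nor is it stated whether 0 h mice had received the drug or a vehicle. All groups at 1, 3 and 12 h were given the drug, so in a change from 0 h the drug cannot be told apart from handling or time of day.

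Complement is a cascade of plasma proteins, most of them made by hepatocytes, that marks cells and debris for removal and can pierce membranes. The classical pathway starts with C1q and the lectin pathway with sugar-binding proteins such as the mannose-binding lectins, and both use C4 and C2 to build an enzyme that cleaves C3. The alternative pathway amplifies C3 cleavage through factor B, and the terminal proteins C5 to C9 assemble the membrane pore. Regulators in plasma and on cell surfaces break up these enzymes or block the pore. C1q, in contrast to most of the other proteins, is known to be made by macrophages, which in liver include the Kupffer cells.

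Counts on genes ran from 3.54 to 7.58 M per library (median 5.93 M), so 1 read was worth 0.124 to 0.349 CPM. Egfr averaged 75.4 to 209 CPM in the 4 KO groups and 223 to 464 CPM in the 4 WT groups, and its mean was lower in KO at each time. Its level of 335 CPM in the library labelled KO 1 h replicate 1 goes against that label. KO 3 h replicate 3 had 271 CPM, below the WT 3 h libraries (303 to 633 CPM) but above the WT 12 h libraries (203 to 263 CPM). WT 3 h replicates 2 and 3 stood apart from the other libraries in the sum of 16 acute phase genes, which the liver raises in inflammation. The sum was 22651 and 25739 CPM there, 6254 CPM in WT 3 h replicate 1 and 4217 to 6619 CPM in the other libraries. Single KO livers were raised in some of these genes. Saa1 had 73.7 CPM in KO 1 h replicate 1, 33.7 CPM in KO 3 h replicate 1 and 195 CPM in KO 12 h replicate 3. It had 1100 and 735 CPM in WT 3 h replicates 2 and 3, and 2.28 to 8.66 CPM in the remaining libraries. The 6 hepatocyte markers found in the files summed to 33772 CPM or more in every library, and those of neutrophils to at most 10.8 CPM. In bulk liver, fewer cells of a type and less RNA per cell cannot be told apart.

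C3, the protein on which the pathways converge, had the highest level. Per kilobase of transcript it reached 620 ± 218 CPM (mean ± SD over 24 libraries). It was followed by Clu (clusterin, which binds forming membrane pores) at 307 ± 75.8, Cfhr2 (a plasma regulator) at 162 ± 16.1, Serping1 (the C1 inhibitor) at 152 ± 35.9 and C9 (the protein that forms the pore ring) at 136 ± 28.1 CPM per kilobase. Cfhr2 and Serping1, and Serping1 and C9, differed by less than 1 SD, whereas C3 and Clu stood apart from the next gene by more. The 3 C1q chains were far lower, with 4.03 ± 1.99 for C1qb, 4.98 ± 1.5 for C1qa and 6.92 ± 2.60 CPM per kilobase for C1qc. C3 alone took 0.204% to 0.665% of the gene counts of a library, and the kept genes together 0.526% to 1.28%.

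The lowest kept gene was C3ar1, the receptor of the C3a fragment, with a mean of 1.53 CPM over the 24 libraries. C5ar1, the C5a receptor of myeloid cells, missed the minimum with a mean of 0.372 CPM and 51 reads in all. Cfd, the protease factor D that fat tissue makes in mice, also missed it. It had 3 reads in the 24 libraries, none of them on its own strand, and the 6 adipocyte markers summed to 1.57 to 9.55 CPM. Of these sums Fabp4 alone took 1.22 to 9.55 CPM, and the other markers averaged at most 0.0975 CPM each. Several genes have near copies between which reads can be split or lost (C4b and C4a, C1ra and C1rb, C1s1 and C1s2, Cd55 and Cd55b, Cd59a and Cd59b, Cfhr2 and its relatives), and their levels are uncertain to that degree. Counts for Masp2 and Fcna were also incomplete: counted by strand, their reads were 1.99 and 3.04 times those counted without it, and reads that overlap several genes are left out of the deposited gene counts.

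**Figure D1:**
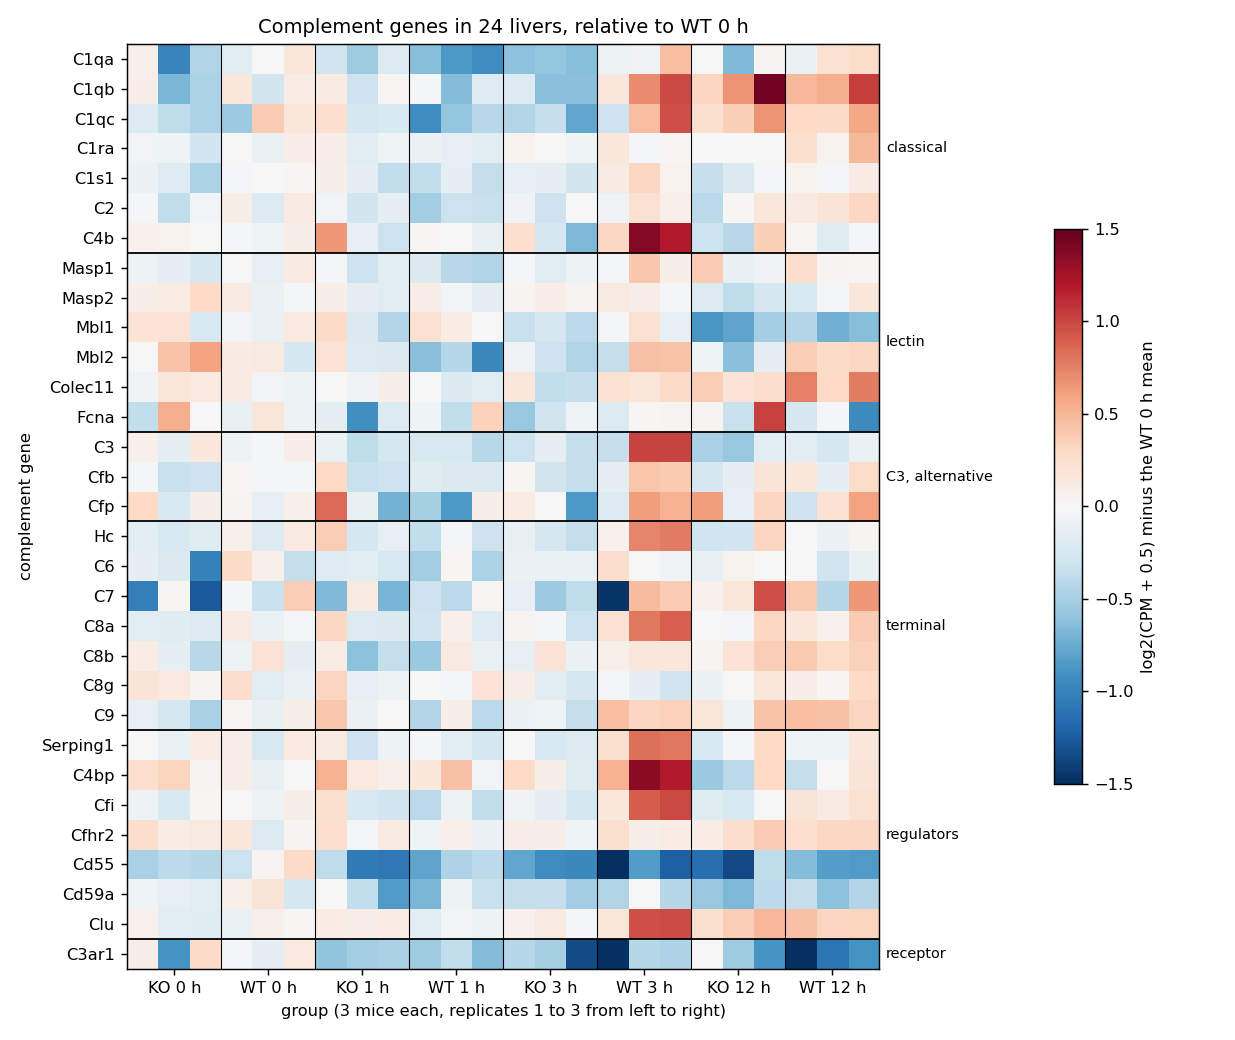
Level of the 31 kept complement genes in each of the 24 libraries, as log2(CPM + 0.5) minus the mean of the 3 WT 0 h libraries (colour, cut off at -1.5 and 1.5). Rows are genes by pathway; columns are mice, with KO left of WT at each time. WT 3 h replicates 2 and 3 are the high columns, where 9 of the 31 genes had their 2 highest values.

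In the map of all libraries, WT 3 h replicates 2 and 3 stood out. In 9 of the 31 tested complement genes (29%) these 2 libraries held the 2 highest values, against 252 of the 13204 tested genes (1.91%). The 9 genes were C4b, C3, Cfb, Hc, C8a, Serping1, C4bp, Cfi and Clu, which are classical, alternative and terminal pathway genes and regulators, with no lectin pathway gene and no receptor among them. The widest ranges among them were those of C4b, with a highest value 4.17 times its lowest, C4bp (3.78 times) and C3 (3.01 times). Over all 31 genes the narrowest ranges were those of Cfhr2, with a highest library 1.501 times the lowest, C8g (1.54 times) and Masp2 (1.61 times).

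At 3 h WT livers held on average more RNA for C3, C5, C8 alpha, C4 and several soluble inhibitors than at 0 h. In each of these genes WT 3 h replicate 1 lay below replicates 2 and 3. Of the 31 tested complement genes 8 rose and 1 fell (edgeR's quasi-likelihood test, adjusted p under 0.05), where 14.1% of all tested genes were called, 7.28% as higher and 6.85% as lower. The median log2 fold change of the 31 genes was 0.16, and that of all tested genes was -0.0018. Each change in brackets is a log2 fold change, SE is its standard error, and p-values were adjusted over all tested genes. By pathway, 4 of 7 regulators rose and 1 fell, 2 of 7 terminal genes rose, and 1 gene each rose among the classical genes and among C3 and its alternative pathway partners. No lectin pathway gene was called.

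Of the soluble regulators Cfi, C4bp, Serping1 and Clu rose, and Cfhr2 was not called. Cfi encodes factor I, the protease that inactivates C3b and C4b. It had 249, 418 and 443 CPM in the WT 3 h livers, against 222, 212 and 237 CPM in the WT 0 h livers (log2 fold change 0.72, SE 0.16, edgeR adjusted p = 0.0016). All of its WT 3 h values lay above the WT 0 h values, with replicates 2 and 3 far above replicate 1. C4bp, a cofactor of factor I that binds C4b, had 118, 211 and 189 CPM at 3 h, against 88.3, 76.3 and 82.9 CPM at 0 h (1.06, SE 0.22, edgeR adjusted p = 0.00226). Serping1 had 304, 457 and 446 CPM at 3 h, against 275, 218 and 285 CPM at 0 h (0.63, SE 0.15, edgeR adjusted p = 0.00378). Here WT 3 h replicate 1 was close to the highest 0 h liver. Clu had 543, 939 and 941 CPM at 3 h, against 448, 503 and 486 CPM at 0 h (0.75, SE 0.14, edgeR adjusted p = 0.000398).

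Cd55, a membrane protein that speeds the decay of the C3 and C5 convertases, moved the other way. It had 12.5, 20.1 and 15.3 CPM in WT 3 h livers and 29.1, 37.4 and 44.5 CPM in WT 0 h livers (-1.23, SE 0.21, edgeR adjusted p = 0.000208). The groups did not overlap, and here WT 3 h replicate 1 was the lowest. Cd55 was still called lower when any 1 library was left out.

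Among the effector genes, C8a, which encodes a chain of C8, had 319, 472 and 505 CPM in WT 3 h livers and 295, 253 and 268 CPM in WT 0 h livers (0.67, SE 0.16, edgeR adjusted p = 0.00351). C4b, the C4 that both the classical and the lectin pathway cleave, ran from 293 to 612 CPM at 3 h and from 225 to 249 CPM at 0 h (1.03, SE 0.28, edgeR adjusted p = 0.0185). For C3 the groups overlapped, with 2576 to 6629 CPM at 3 h and 3109 to 3523 CPM at 0 h (0.68, SE 0.21, edgeR adjusted p = 0.0298). WT 3 h replicate 1 lay below every WT 0 h liver in C3. Hc, the mouse gene for C5, ran from 558 to 920 CPM at 3 h and from 461 to 587 CPM at 0 h, also with overlap (0.55, SE 0.18, edgeR adjusted p = 0.0342).

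None of the 8 higher calls at 3 h was made without WT 3 h replicates 2 and 3. With both left out the WT 3 h group was 1 library, replicate 1, whose spread was taken from the other groups, so that fit shows little on its own. In it 2 of the 31 genes were called, Cd55 and C3ar1 (3 reads in that library), both as lower, and the log2 fold change of C3 was -0.35. The calls of C3 and Hc were also lost when any 1 of the 5 libraries other than WT 3 h replicate 1 was left out. That of C4b was lost without WT 0 h replicate 1 or 2, or WT 3 h replicate 2 or 3. In those 4 cases 6 genes were called. C3 was not called either with library size alone, without the low-count filter, or with only the 2 groups in the fit, and Hc not with only the 2 groups in the fit. Of the 15 tested acute phase genes, 14 rose in the same comparison.

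**Figure D2:**
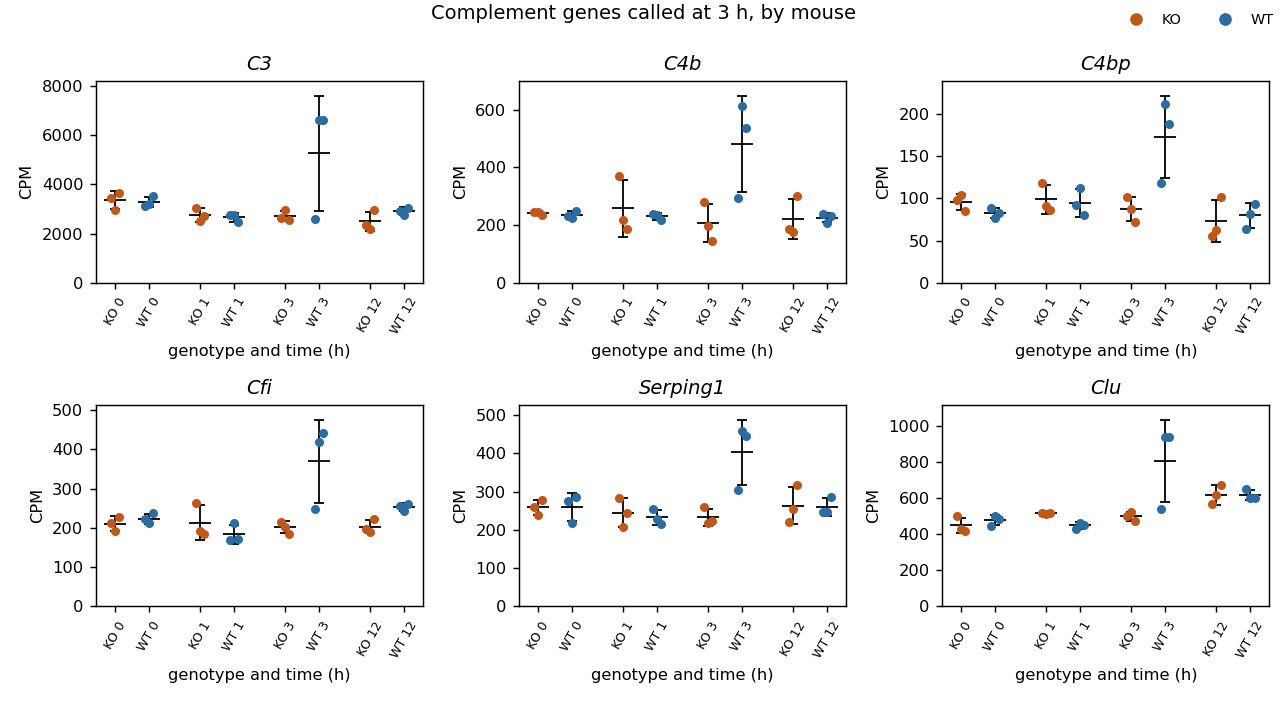
CPM of 6 complement genes in each mouse (dots) by genotype and time, with the mean and SD of each group of 3 (bars). WT 3 h replicates 2 and 3 lie above the other libraries, C3 at 6605 and 6629 CPM, and WT 3 h replicate 1 lies below both in each of the 6 genes.

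In KO livers at 3 h no complement gene was called against KO 0 h, with 3 of 31 at an unadjusted p under 0.05 and none by DESeq2, where 9.95% of all tested genes were called. The 3 genes were Mbl2, Mbl1 and Cd55, each lower at 3 h. C3 had 2625, 2964 and 2560 CPM in the KO 3 h livers, within or below the range of 2955 to 3673 CPM in the KO 0 h livers. None of the 15 tested acute phase genes was called in KO livers at 3 h.

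Compared directly at 3 h, KO livers had lower levels of 9 of the 31 complement genes than WT livers and higher levels of none (edgeR's quasi-likelihood test). Of all tested genes 0.977% were called, 0.651% as lower. The median log2 fold change was -0.40 over the 31 genes and -0.0088 over all tested genes. The KO and WT livers did not overlap in 16 of the 31 genes, each lower in KO, where 7.89% of all tested genes were lower without overlap. The comparison uses the same 3 WT 3 h libraries as the one above.

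Cfi had 215, 203 and 186 CPM in KO 3 h livers, against 249, 418 and 443 CPM in WT 3 h livers (-0.88, SE 0.16, edgeR adjusted p = 0.00494). Serping1 had 259, 218 and 223 CPM in KO and 304, 457 and 446 CPM in WT livers (-0.79, SE 0.15, edgeR adjusted p = 0.00843). Clu had 502, 524 and 474 CPM in KO and 543, 939 and 941 CPM in WT livers (-0.69, SE 0.14, edgeR adjusted p = 0.0129). In these 3 genes KO values were below all WT values, though WT replicate 1 was near them.

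C8a had 279, 269 and 217 CPM in KO 3 h livers and 319, 472 and 505 CPM in WT 3 h livers (-0.76, SE 0.16, edgeR adjusted p = 0.0129). Hc had 496, 448 and 417 CPM in KO and 558, 890 and 920 CPM in WT livers (-0.80, SE 0.18, edgeR adjusted p = 0.0228). C3 had 2625, 2964 and 2560 CPM in KO and 2576, 6605 and 6629 CPM in WT livers (-0.96, SE 0.21, edgeR adjusted p = 0.0233). For C3 the genotypes overlapped, since WT replicate 1 was as low as the KO livers. C4bp (-0.98, edgeR adjusted p = 0.0283), C4b (-1.21, edgeR adjusted p = 0.0462) and C1qb (-1.25, edgeR adjusted p = 0.041) were the other calls.

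C1qb, C1qa and C1qc encode the 3 chains of C1q, and each had a lower mean in KO livers at 3 h. C1qb ran from 2.18 to 3.09 CPM in KO and from 4.13 to 7.73 CPM in WT livers. C1qc ran from 4.51 to 6.32 CPM in KO and from 6.47 to 16.4 CPM in WT livers (-1.03, SE 0.27, edgeR adjusted p = 0.0622), and C1qa from 3.73 to 3.92 CPM in KO and from 5.78 to 8.52 CPM in WT livers (-0.82, SE 0.25, edgeR adjusted p = 0.148). The genotypes did not overlap in any of the 3, but C1qb alone was called, on 10 to 49 reads per library. The 10 Kupffer cell markers summed to 105 to 123 CPM in KO 3 h livers and to 98.3, 167 and 217 CPM in WT 3 h livers, with none of the 10 called between genotypes and a median log2 fold change of -0.73. The 6 monocyte markers summed to 6.69 to 7.63 CPM in KO 3 h livers and 9.36 to 15.1 CPM in WT 3 h livers. Of these sums Lyz2 alone took 4.98 to 6.75 CPM in KO and 7.98 to 13.1 CPM in WT livers. Only 2 of the 6 markers had a mean of at least 0.5 CPM over the libraries. The part of Kupffer cells and monocytes in the C1q difference was not tested.

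The 9 calls rested on few libraries. Without WT 3 h replicates 2 and 3 none of the 31 genes was called between genotypes at 3 h, and the log2 fold change of C3 was 0.090. That fit has 1 WT 3 h library and a spread taken from the other groups, and with so small a group fewer calls can be made. Leaving out single libraries gave 12, 1 (Cfi) and 0 calls for WT 3 h replicates 1, 2 and 3, and 5, 1 and 0 calls for KO 3 h replicates 1, 2 and 3, the last of which is the KO 3 h library with the highest Egfr. With only the 2 groups in the fit, 1 gene was called, Serping1. The C4b call was lost under either other low-count filter, that of C3 without a filter and that of C1qb with library size alone. Also in this comparison, 12 of the 15 tested acute phase genes and 3 of 5 red blood cell genes (Hba-a1, Hbb-bs and Hbb-bt, which encode hemoglobin chains) were lower in KO livers. The red blood cell genes summed to 55.1, 59.3 and 42.2 CPM in KO 3 h livers and 80.1, 252 and 331 CPM in WT 3 h livers, and their part in the result was not tested.

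**Figure D3:**
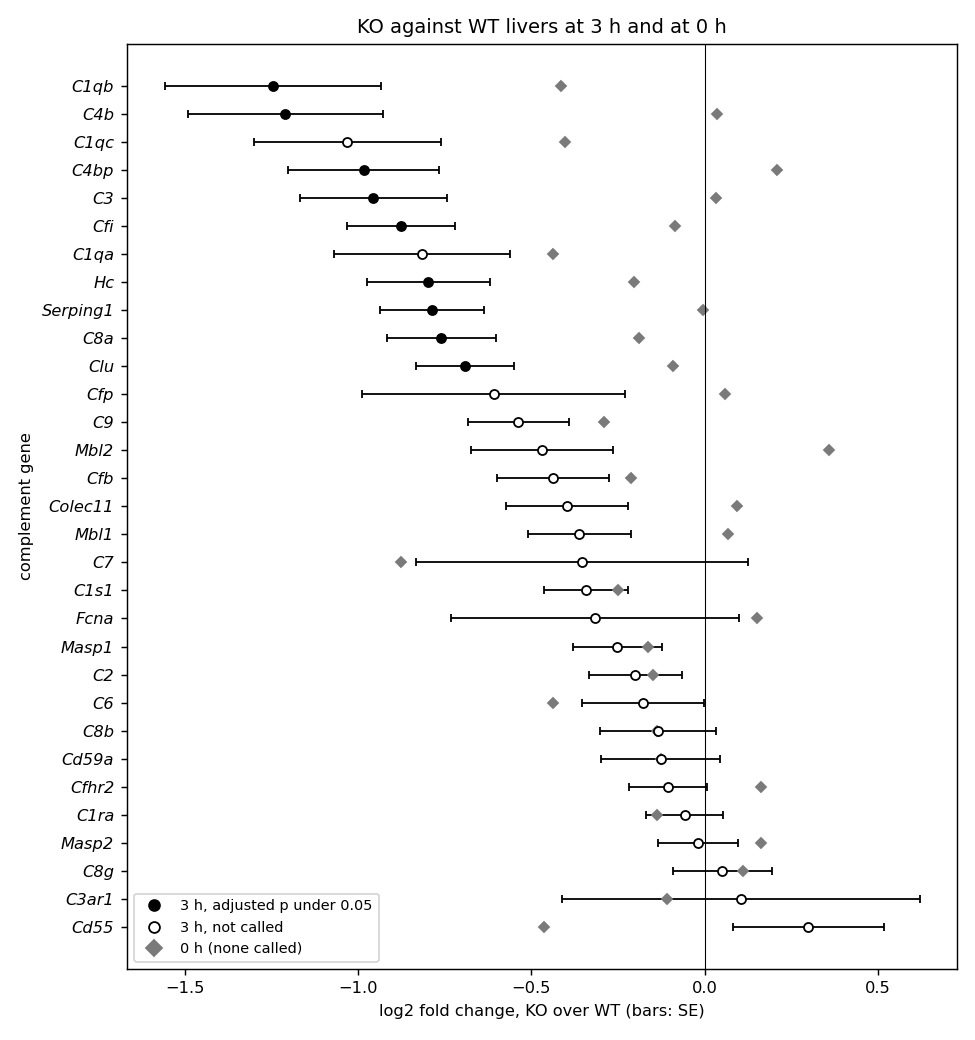
Log2 fold change of KO over WT livers for the 31 tested complement genes at 3 h (circles with SE, filled where edgeR's adjusted p was under 0.05) and at 0 h (grey diamonds). At 3 h, 28 of the 31 lie below 0 and 9 are called, and at 0 h none is called.

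The C8 complex is built from 3 chains of separate genes, C8a, C8b and C8g, of which C8a alone was called at 3 h. C8b had 261, 328 and 266 CPM in KO 3 h livers and 299, 320 and 321 CPM in WT 3 h livers, with overlap. C8g had 28.7, 24.0 and 22.4 CPM in KO and 26.6, 24.2 and 21.8 CPM in WT livers. Neither was called in any of the 14 comparisons. The ratio of C8a to C8b in CPM was 1.07, 0.820 and 0.815 in KO 3 h livers and 1.07, 1.48 and 1.58 in WT 3 h livers. Over the other 6 groups this ratio ran from 0.764 to 1.27, so WT 3 h replicates 2 and 3 were the 2 highest libraries. C8a to C8g was 9.71, 11.2 and 9.68 in KO 3 h livers and 12.0, 19.5 and 23.2 in WT 3 h livers.

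**Figure D4:**
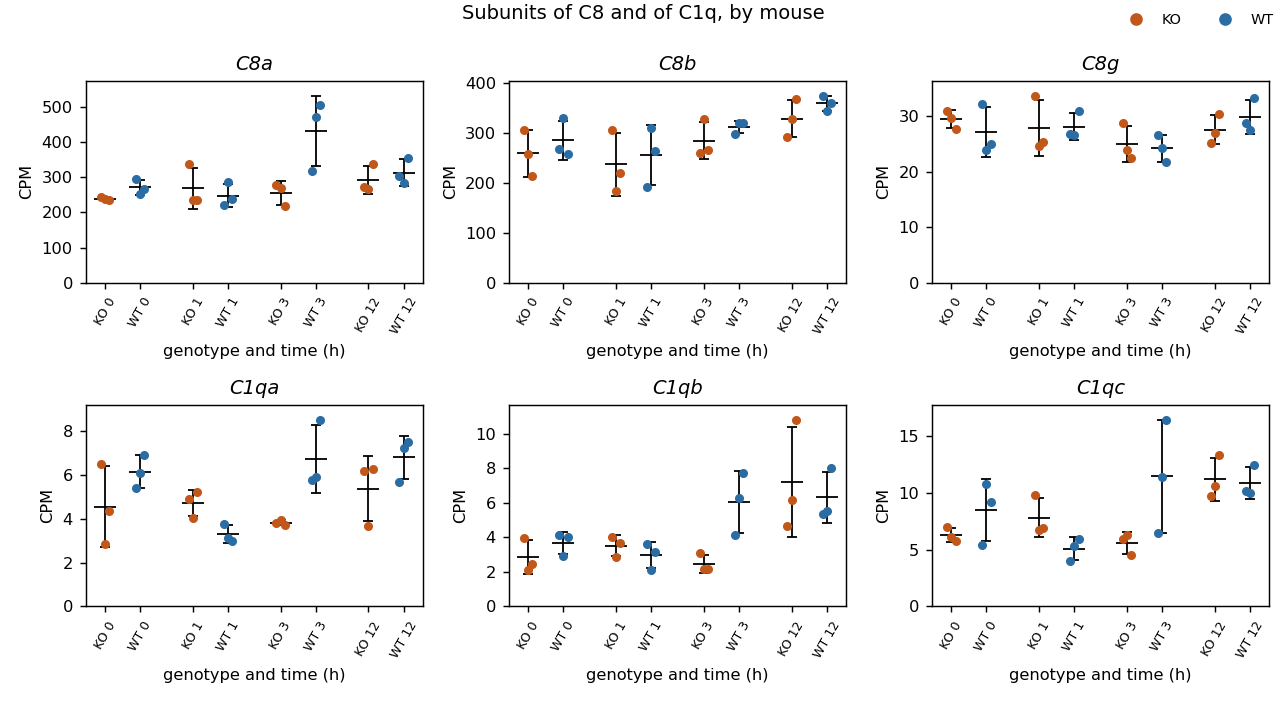
CPM of the 3 chains of C8 (top) and the 3 chains of C1q (bottom) in each mouse, with the mean and SD of each group of 3. C8a reaches 472 and 505 CPM in WT 3 h replicates 2 and 3, where C8b (320 and 321 CPM) stays within the range of the other libraries and C8g (24.2 and 21.8 CPM) lies at the low end of its range.

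The 250 bases before the start of C3 and C8a, which were called at 3 h, and of C8b and C8g, which were not, are shown so that the partners can be compared. They come from RefSeq on build GRCm38.p6 and lie at chr17:57228137-57228386 (minus strand), chr4:104876399-104876648 (minus strand), chr4:104766067-104766316 (plus strand) and chr2:25501720-25501969 (minus strand). They are written 5′ to 3′ along the gene, and capitals mark matches to 3 motifs on either strand.
C3: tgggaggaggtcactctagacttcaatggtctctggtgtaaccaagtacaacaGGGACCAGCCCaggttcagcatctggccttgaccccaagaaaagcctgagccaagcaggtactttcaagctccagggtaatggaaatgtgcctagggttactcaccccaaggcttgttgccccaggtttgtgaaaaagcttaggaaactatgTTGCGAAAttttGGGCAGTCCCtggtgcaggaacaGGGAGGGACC
C8a: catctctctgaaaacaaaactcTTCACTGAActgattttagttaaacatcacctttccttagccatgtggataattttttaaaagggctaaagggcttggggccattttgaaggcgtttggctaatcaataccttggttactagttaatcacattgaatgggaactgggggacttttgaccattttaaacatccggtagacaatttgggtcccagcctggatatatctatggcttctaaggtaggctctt
C8b: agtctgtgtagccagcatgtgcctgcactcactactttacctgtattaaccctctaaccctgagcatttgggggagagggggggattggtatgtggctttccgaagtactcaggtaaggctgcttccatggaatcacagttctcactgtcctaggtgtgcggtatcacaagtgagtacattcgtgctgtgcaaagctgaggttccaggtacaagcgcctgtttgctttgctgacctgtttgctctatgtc
C8g: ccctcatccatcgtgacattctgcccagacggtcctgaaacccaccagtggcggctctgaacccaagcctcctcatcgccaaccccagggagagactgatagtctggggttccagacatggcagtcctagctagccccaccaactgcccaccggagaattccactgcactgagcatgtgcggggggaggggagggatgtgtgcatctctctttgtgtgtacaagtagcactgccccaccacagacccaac
The motifs were TTCNNNGAA for STAT factors, TTGCNNAA for C/EBP factors and a run of 3 G, 5 bases of any kind and 2 C for NF-kB, factors that act in the acute phase response. C3 held a C/EBP match that starts 45 bases before the gene and 4 NF-kB matches, of which the first 2 overlap by all but 1 base. C8a held a STAT match 228 bases before the start, and C8b and C8g held none of the motifs. In windows of 250 bases before to 50 bases after the start, the STAT motif was in 6 of 23 tested complement genes with a promoter in the table (26.1%) and in 8.47% of 27025 promoters. The C/EBP motif was in 4 of the 23 (17.4%) and in 10.8% of all promoters, and the NF-kB motif in 9 of the 23 (39.1%) and in 50.4%. The 6 genes with a STAT match were C1ra, Masp2, Colec11, C7, C8a and Cfhr2, of which C8a alone was called at 3 h. C4b, Serping1, Cfi and Clu were also called at 3 h but had no promoter sequence to search. C4bp, which was called too, held none of the 3 motifs in its window. Such matches describe letters only.

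At 1 h no complement gene was called higher in either genotype, and 1 chain of C1q was called lower in WT livers than at 0 h. C1qa had 3.75, 3.14 and 2.97 CPM in WT 1 h livers and 5.41, 6.10 and 6.93 CPM in WT 0 h livers (log2 fold change -0.89, SE 0.25, edgeR adjusted p = 0.0246), without overlap. It was the 1 complement gene called of 31, where 8.09% of all tested genes were called, 4% as lower. C1qc (-0.71) and C1qb (-0.34) were not called. A further 7 genes had an unadjusted p under 0.05, all lower at 1 h, among them Mbl2 (-0.67, edgeR adjusted p = 0.0502), C2 (-0.41), the protease of the C3 convertase, and Masp1 (-0.37), a protease that binds the lectins. The median over the 31 genes was -0.24, with 28 of 31 below 0, and over all tested genes -0.0081.

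Of the 10 Kupffer cell markers 6 were lower in WT 1 h livers too (Marco, Cd163, Adgre1, Vsig4, Csf1r and Clec4f), and their summed level was 99.8 to 115 CPM in WT 1 h livers and 129 to 211 CPM in WT 0 h livers. Their part in the C1q change was not tested. The C1qa call, on 18 to 52 reads per library, was lost without WT 0 h replicate 3, WT 1 h replicate 2 or WT 1 h replicate 3, with 1, 1 and 0 complement genes called then, and with DESeq2. There were 3 calls when WT 0 h replicate 1 was left out and 2 for WT 0 h replicate 2.

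In KO livers at 1 h no complement gene was called against KO 0 h (3 at an unadjusted p under 0.05, 0 by DESeq2), where 7.58% of all tested genes were called. The count was also 0 without the library labelled KO 1 h replicate 1. That library was the highest of its group in C4b (370 CPM, against 216 and 187 CPM in the other KO 1 h livers) and in Hc (689 CPM, against 446 and 489 CPM).

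At 12 h the genes called were Mbl1, Mbl2, Masp2, C1qb, C1qc, C9 and Clu in KO livers and Mbl1, Colec11, C9, C3ar1, Cd55 and Cd59a in WT livers. None of the 8 genes that rose in WT livers at 3 h was called in WT livers at 12 h. In KO livers 4 of the 31 genes rose and 3 fell against 0 h, where 28.8% of all tested genes were called (15.1% as higher and 13.7% as lower). This balance rested on 1 mouse: without KO 12 h replicate 3, 1 rose and 5 fell. The median log2 fold change of the 31 genes was then -0.032, against 0.13 with that library. In WT livers 2 rose and 4 fell, where 25.6% were called (13.4% as higher and 12.2% as lower). The shares of the 31 genes called, 22.6% in KO and 19.4% in WT livers, were below those of all genes. The split also depends on the scaling. Library size alone put the median of all genes at -0.26 in KO and -0.37 in WT livers. With it 1 rose and 7 fell in KO, and 0 rose and 8 fell in WT livers. In WT livers 5 rose and 3 fell with counts by strand, 4 rose and 4 fell with only the 2 groups in the fit, and 0 rose and 4 fell without the low-count filter.

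Of the 6 lectin pathway genes 3 fell in KO livers at 12 h, and 1 rose and 1 fell in WT livers. Mbl1, a mannose-binding lectin, had 37.8, 39.8 and 48.5 CPM in KO 12 h livers and 80.3, 80.4 and 58.6 CPM in KO 0 h livers (-0.80, SE 0.16, edgeR adjusted p = 0.00022). In WT livers it had 50.9, 42.0 and 44.3 CPM at 12 h, against 67.5, 64.5 and 76.7 CPM at 0 h (-0.61, SE 0.15, edgeR adjusted p = 0.00376). The groups did not overlap in either genotype, and both calls held without any 1 library. Mbl2, the other mannose-binding lectin, had 77.7, 52.3 and 73.3 CPM in KO 12 h livers and 81.1, 109.5 and 123 CPM in KO 0 h livers (-0.63, SE 0.21, edgeR adjusted p = 0.0273). In WT livers it had 105, 99.2 and 100.4 CPM at 12 h, against 88.7, 88.9 and 67.6 CPM at 0 h and was not called. The ratio of Mbl2 to Mbl1 in CPM was 1.31 to 2.05 in KO 12 h livers and 1.01 to 2.10 in KO 0 h livers, and 2.06 to 2.36 in WT 12 h livers and 0.880 to 1.38 in WT 0 h livers. The difference between the genotypes' responses in Mbl2 at 12 h was -0.95 (SE 0.29) and did not pass (edgeR adjusted p = 0.291).

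Masp2, the protease that cleaves C4 and C2 once lectins bind, had 33.4, 29.5 and 32.5 CPM in KO 12 h livers and 41.0, 41.9 and 47.6 CPM in KO 0 h livers (-0.46, SE 0.12, edgeR adjusted p = 0.00449). Colec11, a collectin, had 13.9, 10.0 and 14.0 CPM in WT 12 h livers and 8.76, 7.78 and 7.59 CPM in WT 0 h livers (0.64, SE 0.18, edgeR adjusted p = 0.00719). Both pairs of groups stood apart without overlap, and the Masp2 call was also made with counts by strand. The Colec11 call was lost with library size alone, without the low-count filter and without WT 12 h replicate 3.

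**Figure D5:**
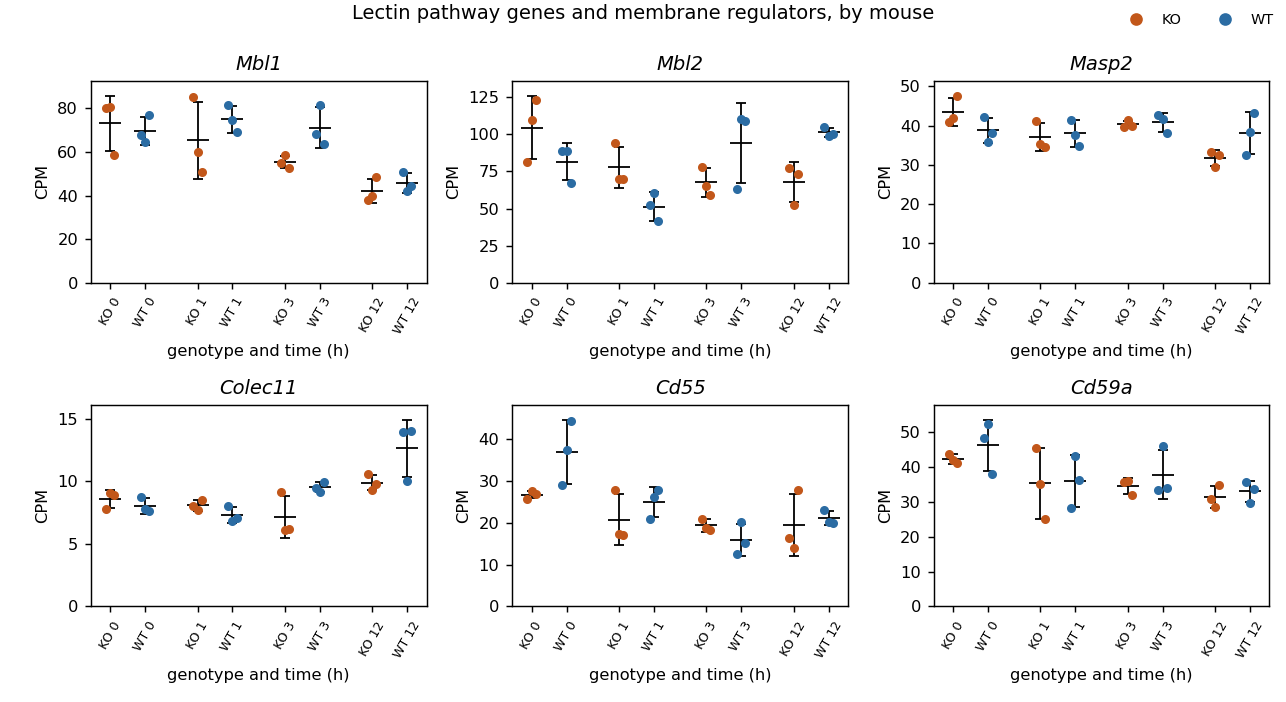
CPM of 4 lectin pathway genes and of the membrane regulators Cd55 and Cd59a in each mouse by genotype and time, with the mean and SD of each group of 3. Mbl1 is lower at 12 h than at 0 h in both genotypes, and Mbl2 is at 52.3 to 77.7 CPM in KO 12 h livers and 99.2 to 105 CPM in WT 12 h livers.

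Of the 3 C1q chains 2 were called higher in KO livers at 12 h than at 0 h. C1qb had 4.69, 6.14 and 10.8 CPM in KO 12 h livers and 3.96, 2.09 and 2.48 CPM in KO 0 h livers (1.32, SE 0.32, edgeR adjusted p = 0.00192). C1qc had 9.67, 10.6 and 13.3 CPM at 12 h, against 6.97, 6.12 and 5.71 CPM at 0 h (0.83, SE 0.28, edgeR adjusted p = 0.0263). In neither gene did the groups overlap. C1qa had 6.16, 3.68 and 6.29 CPM at 12 h, against 6.49, 2.84 and 4.35 CPM at 0 h and was not called. Of the 10 Kupffer cell markers Cd68 was higher (1.77) and Slc40a1 lower (-1.57), and 8 of the 10 had a log2 fold change above 0, with a median of 0.27. Their summed level was 95.1 to 126 CPM in KO 12 h livers and 109 to 143 CPM in KO 0 h livers, of which Slc40a1 alone took 14.7 to 18.9 CPM in KO 12 h livers and 39.8 to 57.2 CPM in KO 0 h livers. The part of these cells in the C1q change was not tested. Clec4f, which is particular to Kupffer cells, had 15.2 to 25.8 CPM at 12 h and 15.7 to 21.1 CPM at 0 h. In WT livers C1qb ran from 5.38 to 8.04 CPM at 12 h and from 2.94 to 4.12 CPM at 0 h, without overlap. C1qc ran there from 10.0 to 12.4 CPM at 12 h and from 5.41 to 10.7 CPM at 0 h, with overlap. C1qa overlapped too, and no C1q chain was called in WT livers at 12 h.

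C9 in both genotypes and Clu in KO livers were called higher at 12 h than at 0 h. C9 had 298, 250.1 and 356 CPM in KO 12 h livers and 241, 220 and 188 CPM in KO 0 h livers (0.48, SE 0.15, edgeR adjusted p = 0.0142). In WT livers it had 362, 357 and 330.1 CPM at 12 h, against 268, 243 and 281 CPM at 0 h (0.40, SE 0.15, edgeR adjusted p = 0.0408). Clu had 566, 617 and 676 CPM in KO 12 h livers and 499, 429 and 420 CPM in KO 0 h livers (0.46, SE 0.14, edgeR adjusted p = 0.0134). These genes were higher in every 12 h liver than in any 0 h liver of the same genotype, but the C9 and Clu calls were lost with library size alone, as was that of C1qc.

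Cd55 had 23.1, 20.3 and 20.0 CPM in WT 12 h livers and 29.1, 37.4 and 44.5 CPM in WT 0 h livers (-0.81, SE 0.21, edgeR adjusted p = 0.00615). Cd59a, which blocks the assembly of C9 on cells, had 35.7, 29.7 and 33.7 CPM at 12 h, against 48.5, 52.3 and 38.1 CPM at 0 h (-0.48, SE 0.18, edgeR adjusted p = 0.0444). Both were lower at 12 h without overlap. In KO livers Cd59a ran from 28.5 to 34.9 CPM at 12 h and from 41.1 to 43.9 CPM at 0 h, also without overlap. Cd55 ran there from 14.0 to 27.9 CPM at 12 h and from 25.8 to 27.6 CPM at 0 h, and neither was called. C3ar1 had 0, 0.834 and 1.04 CPM in WT 12 h livers and 2.32, 2.10 and 2.66 CPM in WT 0 h livers (-1.83, SE 0.59, edgeR adjusted p = 0.0204). These rest on 0, 3 and 4 reads at 12 h and on 18, 10 and 20 reads at 0 h, where the libraries were mostly deeper.

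Single libraries decided several of the 12 h calls. In WT livers the C9 call was lost without any 1 of the 6 libraries, that of Cd59a without any 1 but WT 0 h replicate 3, and that of C3ar1 without WT 0 h replicate 3 or WT 12 h replicate 1. There 3 genes were called without WT 12 h replicate 1 or replicate 3. With DESeq2 the C9 and Cd59a calls in WT livers and the C1qc call in KO livers were lost, and so were that of C9 without the low-count filter and that of Cd59a with counts by strand. In KO livers 3 genes were called without KO 0 h replicate 3, when C1qc, Mbl2, C9 and Clu were lost. C1qc was further lost without KO 0 h replicate 2 or KO 12 h replicate 2 or 3, Mbl2 without KO 0 h replicate 2 or KO 12 h replicate 2, and C9 and Clu without KO 12 h replicate 3.

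No complement gene was called between KO and WT livers at the other times or on average. At 0 h, 0 of the 31 genes were called (3 at an unadjusted p under 0.05, 0 by DESeq2), where 0.0151% of all tested genes were called. At 1 h the count was again 0 of 31 (3 at an unadjusted p under 0.05, 0 by DESeq2; 0.492% of all genes), also without the library labelled KO 1 h replicate 1. The 12 h count was 0 of 31 as well (3 at an unadjusted p under 0.05, 0 by DESeq2; 0.053% of all genes). Averaged over the 4 times, none of the 31 was called, with 12 at an unadjusted p under 0.05, 0 by DESeq2 and 0% of all genes called. Of the 31 complement genes 26 lay below 0 in that average, with a median of -0.15, against 0.00034 over all tested genes. The lowest edgeR adjusted p was 0.521, for Cfi (-0.27, SE 0.078). The average includes WT 3 h replicates 2 and 3. Without them, which leaves 1 WT 3 h library, the median over the 31 genes was -0.071.

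The response of KO livers was also tested against that of WT livers. At 3 h none of the 31 differences passed with edgeR (11 at an unadjusted p under 0.05), where 0.151% of all tested genes did. DESeq2 called 2, Serping1 and C4bp. The response of C4bp was lower in KO than in WT by -1.20 on the log2 scale (SE 0.31, edgeR adjusted p = 0.137) and that of Serping1 by -0.78 (SE 0.21, edgeR adjusted p = 0.128). Without WT 3 h replicate 1, 7 differences passed, those of C4b, Mbl2, C3, Serping1, C4bp, Cfi and Clu. At 1 h 0 of 31 passed (6 at an unadjusted p under 0.05, 0 by DESeq2; 0.454% of all genes). At 12 h it was also 0 of 31 (3 at an unadjusted p under 0.05, 0 by DESeq2; 0.0227% of all genes). A gene called in WT livers and not in KO livers is therefore not shown to differ in its response.

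A further 27 complement genes outside the list were looked up, 18 of which were tested. At 3 h, 2 of the 18 rose in WT livers, Vtn (0.72) and Cd46 (1.13), which is 11.1% called, below the 14.1% of all tested genes. Between genotypes at 3 h, 2 of the 18 were lower in KO livers (11.1%, against 0.977% of all tested genes called). Vtn, vitronectin, which binds soluble pore complexes, had 404, 336 and 332 CPM in KO 3 h livers and 444, 686 and 661 CPM in WT 3 h livers (-0.74, SE 0.15, edgeR adjusted p = 0.0112). Cpn2, a subunit of the carboxypeptidase that trims the C3a and C5a fragments, had 152, 159 and 152 CPM in KO and 176, 252 and 247 CPM in WT livers (-0.54, SE 0.12, edgeR adjusted p = 0.0198).

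C1rl, a protease related to C1r, was lower than at 0 h in KO livers at 1 h (-0.56), 3 h (-0.71) and 12 h (-0.98) and in WT livers at 12 h (-0.74). In KO livers it had 24.9, 20.4 and 19.6 CPM at 12 h, against 40.7, 46.4 and 40.7 CPM at 0 h (edgeR adjusted p = 3e-06). Cd93, a surface protein of endothelial cells, had 21.1, 14.7 and 21.0 CPM in KO 12 h livers and 7.44, 7.61 and 7.57 CPM in KO 0 h livers (1.31, edgeR adjusted p = 1.5e-05), and it also rose in WT livers (0.87). Counts of Cd46 rose in 5 of the 6 changes from 0 h, but 34.9% of its reads lay on its own strand, so they cannot be told apart from those of a gene on the other strand. At 1 h, Vsig4, a complement receptor of Kupffer cells, and Cpn2 were lower in WT livers. At 12 h in KO livers Susd4, Cpn1 and Cpn2 were lower too, and in WT livers Colec10 was higher.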

How the data were processed

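Polyadenylated RNA of single livers was sequenced on an AVITI instrument, per the labels. The authors deposited raw counts per gene symbol, made with STAR on build mm39 per the submitters' processing notes; neither its version nor the annotation is given in the sources used here. Counts without regard to strand were used, as a rule of the gene list says. Genes took 17.6% to 22.5% of the reads, and 26.3% to 30.8% were ambiguous between genes, so overlapping genes are undercounted. The other reads are on 4 lines that name no gene and were left out of library sizes.

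With edgeR 4.0.16 (R 4.3.3), filterByExpr selected the genes (99.4% or more of the counts), counts were scaled by TMM and fitted by robust quasi-likelihood with 1 mean per group over the 24 libraries. The 14 contrasts were tested two-sided, with Benjamini-Hochberg adjustment over 13204 genes at 0.05. The code was tested on simulated data. CPM per kilobase used the APPRIS principal transcripts of GENCODE vM21. Promoters were matched by symbol, 25 of 33 genes.

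Every gene called in a contrast could be named, the 6 with the smallest p with the value of each library, and subunit partners with values. The members and lists were chosen with earlier results of these data known. Alternatives were DESeq2 1.42.0, the gene-strand column, RLE scaling or no scaling beyond library size, a minimum of 1 CPM in 3 libraries or no filter, a block for the replicate number, a fit of the compared groups alone, leaving out WT 3 h replicates 2 and 3 and leaving out each library in turn.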

Additional observations from a re-analysis of the deposited data

How the results depend on the processing

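The numbers of complement genes called, of 31, depended on the settings as follows. With library size alone 1 was called in KO livers at 3 h and 3 in WT livers at 1 h, both against 0 h. With no low-count filter the counts were 2, 1 and 11 in KO livers at 1, 3 and 12 h, 3 in WT livers at 1 h, 1 between KO and WT livers at 1 h, at 12 h and over the 4 times, and 1, 5 and 1 for the difference of responses at 1, 3 and 12 h. DESeq2 called 2 differences of response at 3 h. A fit of the compared groups alone gave 3 in KO livers at 3 h, 3 in WT livers at 1 h and 1 between KO and WT livers at 3 h. Without WT 3 h replicates 2 and 3 there were 0 between KO and WT livers at 3 h and 2 in WT livers at 3 h, and the sign of C3 turned in both comparisons (log2 fold change 0.090 for KO over WT and -0.35 in WT livers). That fit has 1 WT 3 h library. RLE scaling, a minimum of 1 CPM in 3 libraries and the gene-strand column kept every total count within 1.5 times, though with the gene-strand column 5 genes rose and 3 fell in WT livers at 12 h. Except where fewer genes or libraries entered the fit by construction, the cause was not tested.

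Leaving out each library in turn gave 0 to 0 calls in KO livers at 1 h, 0 to 1 at 3 h and 3 to 8 at 12 h. In WT livers it gave 0 to 3 at 1 h, 6 to 11 at 3 h and 3 to 5 at 12 h. Between KO and WT livers it gave 0 to 0 at 0 h, at 1 h and at 12 h, 0 to 12 at 3 h and 0 to 2 over the 4 times. For the difference of responses the ranges were 0 to 0 at 1 h, 0 to 7 at 3 h and 0 to 0 at 12 h. The 32 single calls kept their direction and their side of the threshold in 227 of 274 fits under other settings and in 112 of 192 fits with 1 library left out.

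Whether the replicate numbers pair the samples was not settled. Deviations of same-numbered libraries correlated at -0.168 to 0.183, with medians of -0.0027 to 0.017 by number. Of 24 libraries 13 correlated best with their own number. With the number as a block, 7 complement genes were called between KO and WT livers at 3 h (9 without it). In KO livers at 12 h the count was 9 (7 without it), and the other complement counts were the same. Among all tested genes, 2 were higher and 7 lower in KO than WT livers at 0 h with the block, against 0 and 2 without it. At these depths the C1q chains and C3ar1 rest on few reads per library, and smaller changes in them were not detectable.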
